A study of Mus musculus with 11 samples.

Results

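The genes described here encode the fibrillar collagen chains, the proteins that assemble into the collagen fibrils of the vessel wall. The set was defined by gene symbol and holds 10 genes, Col1a1, Col1a2, Col2a1, Col3a1, Col5a1, Col5a2, Col5a3, Col11a1, Col24a1 and Col27a1, of 48709 mouse genes in the deposited count table. All 10 were found, 1 row each, and 9 passed the filter on low counts that left 14757 genes for testing. Col2a1 did not. The measurements are bulk RNA-seq of the aortic arch, dissected from mice at postnatal day 11. The Het group (6 libraries, Het 1 to 6) carried 1 Tgfbr2 allele with the G357W substitution, made as a model of the Loeys-Dietz syndrome that receptor variants cause, and the WT group (5 libraries, WT 1 to 5) were wild-type littermates (Tgfbr2 +/+). Tgfbr2 codes for the TGF-beta receptor chain that binds the ligand first, and the labels name no Cre, transgene or treatment. Each library was taken as 1 animal because the series counts 6 and 5 mice. The labels name vascular smooth muscle and endothelium as the cell type of the tissue.

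Fibrillar collagens are secreted as procollagens of 3 chains wound into a long helix, and after their ends are removed they line up into banded fibrils that give the aorta its tensile strength. Types I and III make up most of the fibril in the aortic media and adventitia. Type V starts fibril assembly and limits fibril diameter, types II and XI form the fibrils of cartilage, and types XXIV and XXVII are minor chains that form a separate branch of the family. TGF-beta is a classical inducer of type I and type III collagen transcription in fibroblasts and smooth muscle cells. Variants of the human COL3A1 gene cause the vascular form of Ehlers-Danlos syndrome, and those of COL5A1 and COL5A2 its classical form.

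Total counts per library were 13162449 to 18883711 in Het and 13113467 to 19327935 in WT, and 3 counts, which a library showing 0 may hide, equal 0.154 to 0.231 CPM (counts relative to the size of the library, here with TMM factors). Intervals and limits of this kind cover counting error only. Tgfbr2 itself stood at 39.0 ± 8.22 CPM in Het (SD, n = 6) and 41.3 ± 4.29 CPM in WT (SD, n = 5; edgeR adjusted p = 0.79), and counts per gene do not separate its alleles. The labels do not give sex. Xist had 1015 and 1073 counts in Het 1 and Het 2, at most 10 counts in Het 3 to 6, and 900 to 1139 counts in all WT libraries. Ddx3y, on the Y chromosome, had 1176 to 2039 counts in Het 3 to 6 and none in the other 7 libraries. Sex was therefore not balanced between the groups, and the calls on chains and ratios are also given with a sex score as covariate or in the 7 Xist-positive libraries (2 Het, 5 WT). With no Y-positive WT library, genotype and sex cannot be told apart for Het 3 to 6. The fit with the sex score thus leans on Het 1 and Het 2, as the Xist-positive fit does. WT 1 and WT 2 stood apart from the other WT libraries in Col1a1, as shown next, and results that rest on them are also given without them. They stood apart over all tested genes too, by the mean chi-square per gene, which is higher where 2 libraries differ more. It was 12.9 between WT 1 and WT 2, 31.3 to 57.75 between either and WT 3 to 5, and 15.2 to 23.0 among WT 3 to 5.

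No fibrillar collagen chain rose and 2 fell in Het, Col5a2 and Col27a1, by edgeR's quasi-likelihood test with Benjamini-Hochberg adjustment over all 14757 genes and a threshold of 0.05. Of all tested genes 5.03% passed (2.65% higher and 2.38% lower in Het), so 2 of 9 chains that fell stand beside a background of 2.38%. The members that passed the filter were not a random draw, and the count is a description. The next counts use an unadjusted p under 0.05, a looser cut for which no share of all tested genes is given. There, 2 chains were higher (Col1a2 and Col5a1) and 4 were lower (Col3a1, Col5a2, Col24a1 and Col27a1). DESeq2 called 0 higher and 4 lower, those same 4 (of all tested genes, 4.43% higher and 4.34% lower), and limma voom called 0 higher and 2 lower (2.85% and 2.43% of all tested genes). The median log2 fold change of the 9 chains, Het over WT, was -0.37, the value of Col5a2, against -0.0046 over all tested genes. The family was split, with 5 chains negative and 4 positive, and 50.8% of all tested genes were negative. The values of 1 chain, Col5a2, did not overlap between the groups, with every Het library below every WT library, as was the case for 2.2% of all tested genes (2.41% lay wholly above, 4.61% in either direction).

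**Figure D1:**
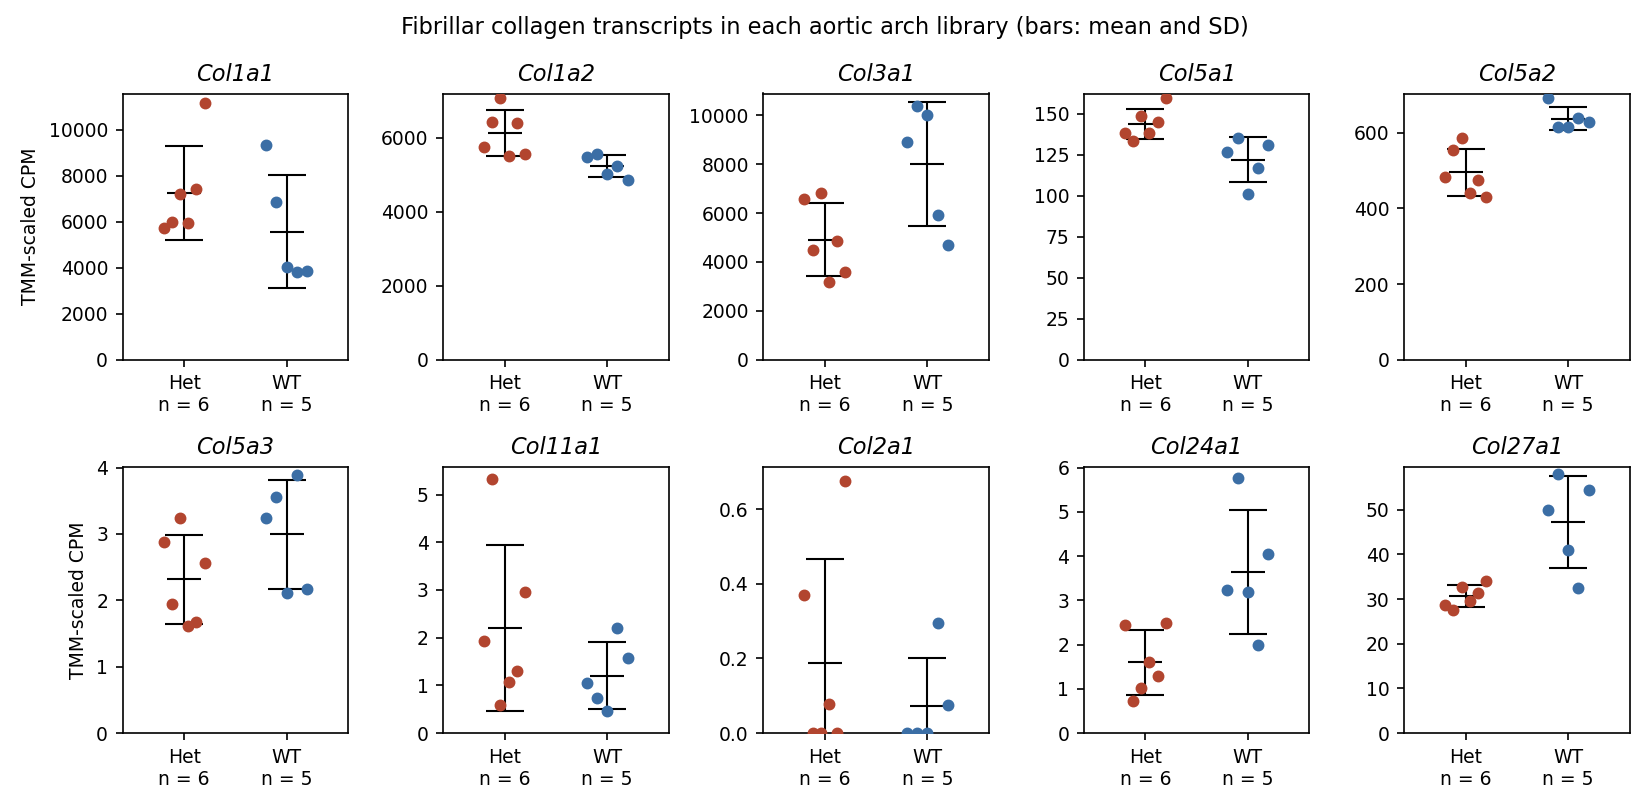
TMM-scaled CPM of each fibrillar collagen gene on the y axis, which starts at 0, with 1 point per library, Het (6 libraries, red) left of WT (5 libraries, blue); black bars are the mean and SD. Het points of Col5a2 lie at 431 to 586 CPM, all below the WT points, and those of Col27a1 at 27.6 to 34.1 CPM, of which 4 lie below the lowest WT library.

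**Figure D2:**
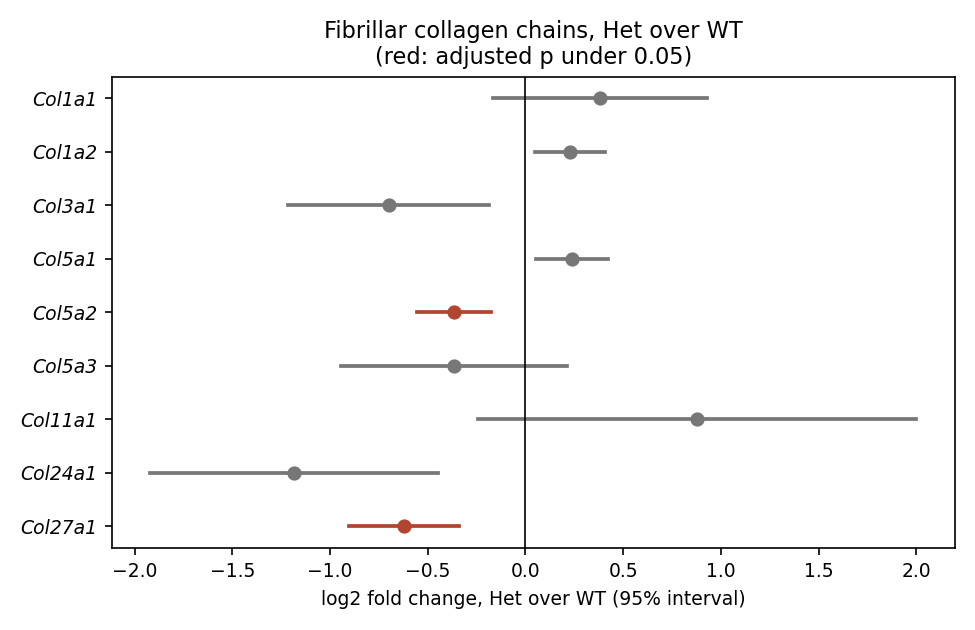
Log2 fold change of Het over WT (x axis) with its 95% interval for the 9 tested chains; red marks an adjusted p under 0.05 by edgeR. The intervals of Col5a2 (-0.55 to -0.18) and Col27a1 (-0.90 to -0.34) lie below 0 and pass; those of Col3a1 and Col24a1 also lie below 0 but did not pass after adjustment.

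Type I collagen is a trimer that joins Col1a1 and Col1a2 chains, with Col1a1 chains in excess, and it is the main load-bearing collagen of most tissues. Neither gene passed. Col1a1 (ENSMUSG00000001506, chromosome 11, 94936224 to 94953042, plus strand of GRCm38) ranged from 5751 to 11178 CPM with a median of 6589 in Het, against 9319, 6849, 4012, 3795 and 3849.6 CPM in WT 1 to 5. WT 1 and WT 2 lay inside the Het range, while WT 3 to 5 lay below every Het library, and Het 6 was the highest of all. The log2 fold change was 0.38 ± 0.25 (SE, 95% interval -0.17 to 0.93, adjusted p = 0.454). With the sex score it was 0.072 (adjusted p = 0.965). Without WT 1 and WT 2 it was 0.90, a description only, since those libraries were picked for their high Col1a1, and no p is given there for Col1a1 or its ratios.

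Col1a2 (ENSMUSG00000029661, chromosome 6, 4504814 to 4541544, plus strand) varied less between libraries than Col1a1 (CV 10.1% in Het and 5.73% in WT, against 28.3% in Het and 44.2% in WT for Col1a1). It ranged from 5516 to 7088 CPM with a median of 6084 in Het, against 5474, 5572, 5019.5, 5228 and 4858 CPM in WT 1 to 5. Of the Het libraries, 4 of 6 lay above the highest WT library. The log2 fold change was 0.23 ± 0.084 (95% interval 0.051 to 0.41) with an adjusted p of 0.137. Over all settings it was 0.18 to 0.28 and never passed (lowest adjusted p = 0.0728, with DESeq2).

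Within a library, the ratio of Col1a1 to Col1a2 counts was 0.998, 0.932, 1.02, 1.08, 1.16 and 2.01 in Het 1 to 6, against 1.70, 1.23, 0.799, 0.726 and 0.792 in WT 1 to 5. The ratio of 2 genes in a library does not depend on how libraries are scaled. It stood close to 1 in 5 of the 6 Het libraries and was high in Het 6 and WT 1. The mean log2 ratio was higher by 0.22 in Het (p = 0.459, exact two-sided permutation test over the 11 libraries, adjusted p = 0.463 over the 7 ratios computed). This difference was -0.042 in the Xist-positive libraries, and 0.58 when WT 1 and WT 2 were left out.

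Type III collagen, made of Col3a1 chains alone, gives distensible tissues their fine fibrils. Col3a1 (ENSMUSG00000026043, chromosome 1, 45311538 to 45349706, plus strand) ranged from 3182 to 6829 CPM with a median of 4678 in Het, against 8925, 10377, 10033, 5939 and 4703 CPM in WT 1 to 5. WT 1 to 3 lay above every Het library, WT 4 and WT 5 lay inside the Het range, and Het 2, 4 and 6 lay below the lowest WT library. The log2 fold change was -0.70 ± 0.24 (95% interval -1.22 to -0.19, adjusted p = 0.117). It passed with DESeq2 (adjusted p = 0.0263) and without WT 5 (-0.84, adjusted p = 0.0416). The value was -0.49 both with the sex score (adjusted p = 0.660) and without WT 1 and WT 2 (adjusted p = 0.506). It stayed negative in all 26 settings.

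Relative to the type I chains of the same library, Col3a1 was lower in Het. The ratio of Col3a1 to Col1a1 counts was 1.14, 0.753, 0.949, 0.534, 0.654 and 0.320 in Het 1 to 6, against 0.958, 1.51, 2.5, 1.56 and 1.22 in WT 1 to 5. Het 1 lay inside the WT range and the other 5 Het libraries lay below the lowest WT library, WT 1. The mean log2 ratio was -0.58 ± 0.65 in Het (SD, n = 6) and 0.56 ± 0.51 in WT (SD, n = 5), a difference of -1.14 (p = 0.0087, exact two-sided permutation test, adjusted p = 0.0303 over 7 ratios; the smallest p that 462 regroupings can give is 0.0043). Against Col1a2 the difference was -0.92 (p = 0.0130, exact two-sided permutation test, adjusted p = 0.0303), with 5 of 6 Het libraries below the lowest WT library, WT 5 here. The ratios share genes and are not independent of each other. They were chosen with earlier results on Col1a1 and Col3a1 in these data known, which the adjusted p does not cover.

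These calls on the ratios are close to what 11 libraries can resolve. The adjusted p of the Col3a1 to Col1a1 ratio was 0.0556 without any 1 of Het 2 to 6 and 0.0667 without WT 2 or WT 3. That of the Col3a1 to Col1a2 ratio was the same without those libraries. It was 0.05 without WT 1, where the adjustment draws on Col1a1 ratios that are no test. With any 1 of the 11 libraries left out the 2 differences were -1.29 to -0.92 and -1.06 to -0.80, and the smallest p of 5 against 5 libraries is 0.0079. In the Xist-positive libraries they were -0.67 and -0.71 (p = 0.190 and 0.286, exact permutation tests that cannot go below 0.095 there). Without WT 1 and WT 2 they were -1.33 and -0.75 (p = 0.0714 for the ratio to Col1a2, exact permutation test before adjustment).

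**Figure D3:**
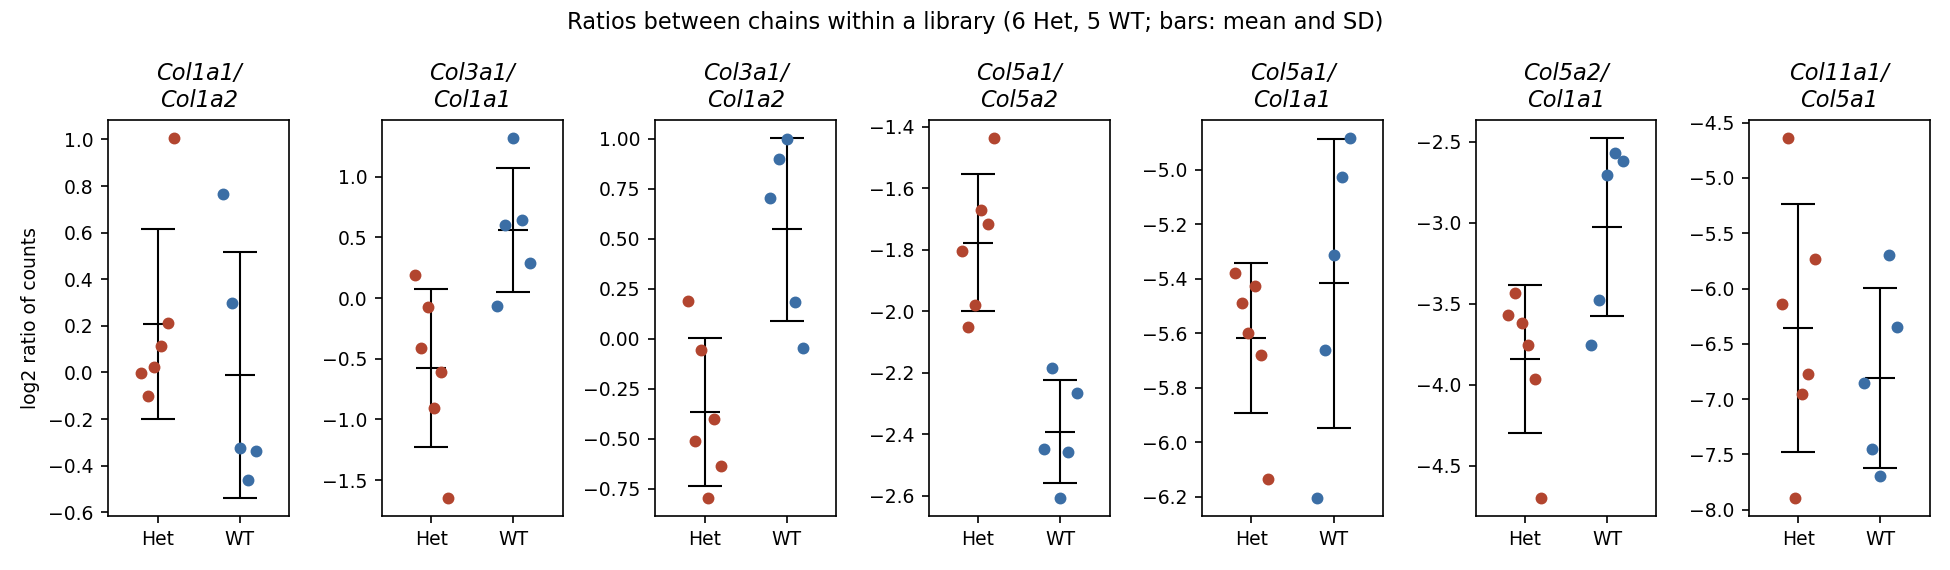
Log2 ratio of the counts of 2 chains within each library (y axis, a separate scale per panel) for the 7 ratios computed, 1 point per library, Het (6, red) left of WT (5, blue), with mean and SD in black. The Col5a1 to Col5a2 points of all Het libraries lie above all WT points, and the Col3a1 to Col1a1 and Col3a1 to Col1a2 points of 5 of 6 Het libraries lie below all WT points.

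The sequence just upstream of the start of transcription is shown for Col1a2 and Col3a1, whose ratio fell, and for Col27a1, which fell on its own. RefSeq gave a window for 7 of the 10 genes (build GRCm38.p6), and the 250 bases before the start are printed 5′ to 3′ on the strand of the gene, here the plus strand for all 3. Capitals mark every match, on either strand, to CCAAT (bound by the NF-Y complex), TATAAA (a core promoter element) and GGGCGG (an Sp1-type GC box). The windows lie at chr6:4505368-4505617, chr1:45311288-45311537 and chr4:63215162-63215411, and the starts of Col1a2 and Col27a1 that RefSeq uses lie inside the GENCODE span of the gene, downstream of its first base.
Col1a2: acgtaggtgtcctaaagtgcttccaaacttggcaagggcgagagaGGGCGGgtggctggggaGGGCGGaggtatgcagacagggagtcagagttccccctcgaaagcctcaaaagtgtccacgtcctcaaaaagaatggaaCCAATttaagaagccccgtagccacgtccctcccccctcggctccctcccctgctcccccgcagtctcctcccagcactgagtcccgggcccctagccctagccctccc
Col3a1: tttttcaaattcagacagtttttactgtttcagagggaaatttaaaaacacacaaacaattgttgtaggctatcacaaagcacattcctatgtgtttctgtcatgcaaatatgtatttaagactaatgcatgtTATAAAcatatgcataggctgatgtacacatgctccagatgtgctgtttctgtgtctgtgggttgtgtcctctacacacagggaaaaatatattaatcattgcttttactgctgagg
Col27a1: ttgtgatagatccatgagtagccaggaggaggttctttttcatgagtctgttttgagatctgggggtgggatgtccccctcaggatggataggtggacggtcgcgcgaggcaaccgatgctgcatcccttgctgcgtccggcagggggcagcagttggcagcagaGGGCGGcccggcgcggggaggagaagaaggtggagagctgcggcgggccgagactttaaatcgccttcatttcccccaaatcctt

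Col1a2 held 1 CCAAT, beginning 109 bases upstream of the start, and 2 GGGCGG. Col3a1 held neither and had 1 TATAAA beginning 117 bases upstream. Col27a1 held 1 GGGCGG, beginning 85 bases upstream. Of 32851 windows of the same length in the table, 33.8% held CCAAT, 12.4% TATAAA and 32.7% GGGCGG. The window of Col3a1 had 35.2% G or C bases, against 58.0 to 76.4% in the other 6 windows. The matches describe letters in these windows and were not compared with expression.

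Type V collagen divided by chain. Col5a1, Col5a2 and Col5a3 join in trimers that nucleate type I fibrils, most often as Col5a1 with Col5a2. Col5a2 (ENSMUSG00000026042, chromosome 1, 45374321 to 45503282, minus strand) ranged from 431 to 586 CPM with a median of 479.6 in Het, against 691, 615, 615, 639.7 and 627 CPM in WT 1 to 5. All 6 Het libraries lay below all 5 WT libraries, and the WT libraries lay close together. Col5a2 averaged 495 ± 62.0 CPM in Het (SD, n = 6) and 638 ± 31.5 CPM in WT (SD, n = 5), and fell by 0.37 ± 0.089 on the log2 scale (95% interval -0.55 to -0.18, adjusted p = 0.0262).

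The call of Col5a2 lay near the threshold. Without WT 1 the adjusted p was 0.0587, and without Het 1, Het 4, Het 5 or Het 6 it was 0.0531, 0.0658, 0.0608 and 0.0606. Its log2 fold change was -0.28 with the sex score (adjusted p = 0.437), -0.29 in the Xist-positive libraries (adjusted p = 0.478), where both Het libraries still lay below every WT library, and -0.34 without WT 1 and WT 2 (adjusted p = 0.0808).

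Col5a1 (ENSMUSG00000026837, chromosome 2, 27886425 to 28039514, plus strand) moved the other way without passing. It ranged from 133 to 159 CPM with a median of 142 in Het, against 126, 135, 101, 117 and 131 CPM in WT 1 to 5. Of the Het libraries, 5 of 6 lay above the highest WT library. The log2 fold change was 0.24 ± 0.086 (95% interval 0.055 to 0.42, adjusted p = 0.131). It passed in 1 of 26 settings, with the column-name number as a covariate (0.34, adjusted p = 0.0441). That number is a 6 or 7 in the names of the deposited columns that the labels do not explain. For Col5a1 the log2 fold change was 0.16 both with the sex score (adjusted p = 0.69) and in the Xist-positive libraries (adjusted p = 0.78). Its exons share 99 and 113 bases with the antisense transcripts 2810430I11Rik and Gm13372, whose reads cannot be told apart in libraries that do not mark strand, and which were counted at no more than 1.49 and 0.603 CPM.

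The ratio of Col5a1 to Col5a2 separated the groups fully. It was 0.286, 0.241, 0.253, 0.314, 0.304 and 0.370 in Het 1 to 6, against 0.183, 0.220, 0.164, 0.182 and 0.208 in WT 1 to 5. The mean log2 ratio was -1.78 ± 0.22 in Het (SD, n = 6) and -2.39 ± 0.17 in WT (SD, n = 5), higher in Het by 0.62 (p = 0.0043, the smallest that an exact two-sided permutation test can give here, adjusted p = 0.0303). It was higher in 6 of 6 Het libraries than in any WT library. Both Xist-positive Het libraries, Het 1 and Het 2, lay above every WT library too (difference 0.46, p = 0.0952, again the smallest p possible there by the exact test). The difference was 0.67 without WT 1 and WT 2 (p = 0.0238, exact two-sided permutation test before adjustment). No adjusted p is given there or without WT 1 alone, because it would draw on Col1a1 ratios that are no test in those settings. With any 1 library left out the difference was 0.55 to 0.67. Its adjusted p was 0.0556 without any 1 of Het 2 to 6, 0.0667 without WT 2 or WT 3, and below 0.05 without Het 1, WT 4 or WT 5.

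Col5a2 was also lower against Col1a1, by 0.82 on the log2 scale, which did not pass over the 7 ratios (p = 0.0390, exact two-sided permutation test, adjusted p = 0.0682). The difference was -1.0 without WT 1, the WT library with the highest Col1a1, and -1.21 without WT 1 and WT 2. Both are descriptions only, because Col1a1 is part of the ratio. With any other single library left out it did not pass (exact permutation test, adjusted p = 0.0556 to 0.15). Col5a1 against Col1a1 differed by -0.20 (p = 0.442, exact permutation test, adjusted p = 0.463), and without WT 1 and WT 2 by -0.54.

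Col5a3 (ENSMUSG00000004098, chromosome 9, 20770050 to 20815067, minus strand), the third type V chain, was sparse. It ranged from 1.62 to 3.23 CPM with a median of 2.25 in Het, against 3.24, 3.55, 2.11, 3.89 and 2.17 CPM in WT 1 to 5, on 21 to 44 counts per library in Het and 29 to 53 in WT. The groups overlapped, and the log2 fold change was -0.37 ± 0.27 (95% interval -0.94 to 0.21, adjusted p = 0.508).

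Col3a1 and Col5a2 are neighbours on chromosome 1. They lie tail to tail with 24614 bases between their ends. Over the 11 libraries the Pearson r of their log2 CPM was 0.72, and it was 0.46 once each library was expressed as its deviation from its group mean. Col3a1 and Col1a2, which lie on different chromosomes, had an r of -0.11 over all libraries and 0.62 for the deviations. Col1a2 and Col5a2 had -0.27 and 0.81, and Col1a1 and Col1a2 had 0.48 and 0.24. The points share their libraries and the difference between the groups, so these are descriptions.

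Col27a1 and Col24a1 encode the chains of the separate branch, type XXVII, found in cartilage and in developing tissues, and type XXIV, best known from developing bone. Col27a1 (ENSMUSG00000045672, chromosome 4, 63214004 to 63334991, plus strand) ranged from 27.6 to 34.1 CPM with a median of 30.4 in Het, against 50.0, 58.0, 41.0, 32.6 and 54.4 CPM in WT 1 to 5. The Het libraries lay close together, and WT 4 alone of the WT libraries lay inside their range. Col27a1 averaged 30.6 ± 2.52 CPM in Het (SD, n = 6) and 47.2 ± 10.4 CPM in WT (SD, n = 5), and fell by 0.62 ± 0.13 on the log2 scale (95% interval -0.90 to -0.34, adjusted p = 0.0119).

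Of the 9 chains, Col27a1 passed in the most settings. It passed with each of the 11 libraries left out in turn (adjusted p = 0.0013 to 0.0396) and in 21 of 26 settings. In the other 5 its fold change was -0.74 both with the sex score (adjusted p = 0.107) and in the Xist-positive libraries (adjusted p = 0.274), -0.52 with the column-name number (adjusted p = 0.0771), -0.48 without WT 1 and WT 2 (adjusted p = 0.0909) and -0.63 with a replicate block (adjusted p = 0.0575). Both Xist-positive Het libraries lay below every WT library.

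Col24a1 (ENSMUSG00000028197, chromosome 3, 145292472 to 145552011, plus strand) had the lowest log2 fold change of the 9 chains but few counts. It ranged from 0.721 to 2.5 CPM with a median of 1.46 in Het, against 3.24, 5.76, 3.18, 1.98 and 4.04 CPM in WT 1 to 5, on 139 counts over all Het libraries and 278 over all WT libraries. Het 1 and Het 6 reached the range of WT, at its low end, where WT 4 lay. On the log2 scale the fold change was -1.18 ± 0.35 (95% interval -1.92 to -0.45, adjusted p = 0.0620), and it passed with DESeq2 (adjusted p = 0.0178) and without WT 4 (-1.34, adjusted p = 0.0345). With the sex score it was -1.24 (adjusted p = 0.395), and without WT 1 and WT 2 it was -0.94 (adjusted p = 0.253). The log2 CPM of Col24a1 and Col27a1 had an r of 0.84 over the 11 libraries and 0.62 for the deviations from the group means.

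Of the cartilage chains, Col2a1 was at the edge of detection and Col11a1 was sparse. Col2a1 (ENSMUSG00000022483, chromosome 15, 97975602 to 98004695, minus strand), the main collagen of cartilage, had 5, 0, 0, 1, 0 and 10 counts in Het 1 to 6, against 0, 0, 0, 4 and 1 counts in WT 1 to 5. It was at 0 in 3 Het and 3 WT libraries, where up to 0.220 CPM would go undetected, and was not tested. Col11a1 (ENSMUSG00000027966, chromosome 3, 114030540 to 114220718, plus strand), a type XI chain that also enters type V trimers outside cartilage, ranged from 0.588 to 5.33 CPM with a median of 1.61 in Het, against 1.06, 0.737, 0.462, 2.20 and 1.57 CPM in WT 1 to 5. Het 2 was the highest library. The log2 fold change of Col11a1 was 0.88 ± 0.53 (95% interval -0.24 to 2.00, adjusted p = 0.390), and 0.40 without Het 2 (adjusted p = 0.734). The ratio of Col11a1 to Col5a1 differed by 0.46 on the log2 scale (p = 0.463, exact permutation test, adjusted p = 0.463).

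Levels can be compared between chains only per length. Per kb of the longest coding transcript, Col1a1 stood at 1222 ± 346 CPM per kb, Col1a2 at 1145 ± 116 and Col3a1 at 884 ± 271 in Het (SD, n = 6). In WT, Col3a1 stood at 1437 ± 456 CPM per kb, Col1a2 at 978 ± 56.0 and Col1a1 at 939 ± 415 (SD, n = 5). In each of these orders of 3, the ranges of mean ± SD of neighbours overlapped. Col5a2 followed at 74.7 ± 9.35 CPM per kb in Het and 96.2 ± 4.75 in WT, then Col5a1 at 17.1 ± 1.11 in Het and 14.5 ± 1.62 in WT, and Col27a1 at 4.03 ± 0.33 in Het and 6.20 ± 1.36 in WT. Col5a3, Col24a1, Col11a1 and Col2a1 were each below 1 CPM per kb in both groups. The order of the top 3 depends on the exon model: per kb of all merged exons, which are much longer for Col1a2 (12426 bases, against 5348 in the longest coding transcript), Col1a1 stood highest in both groups, at 1104 ± 312 CPM per kb in Het and 848 ± 375 in WT, with Col3a1 at 501 ± 154 in Het and 815 ± 259 in WT and Col1a2 at 493 ± 49.8 in Het and 421 ± 24.1 in WT.

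Fibrillar chains took 1.51 to 2.23% of all counts in Het and 1.45 to 2.41% in WT, so their summed share of the library overlapped. Within that sum, per kb of longest coding transcript, Col3a1 made up 26.2 ± 6.58% in Het (SD, n = 6) and 40.9 ± 6.98% in WT (SD, n = 5). Of the Het libraries, Het 1 at 35.5% lay inside the WT range of 33.5 to 51.1%, and the other 5 lay below it. Col1a2 made up 34.5 ± 3.79% in Het and 29.2 ± 5.79% in WT, and Col1a1 36.4 ± 8.04% in Het and 26.3 ± 6.42% in WT. Col5a2 made up 2.25 ± 0.31% in Het and 2.89 ± 0.67% in WT. These shares restate the counts above and were not tested.

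**Figure D4:**
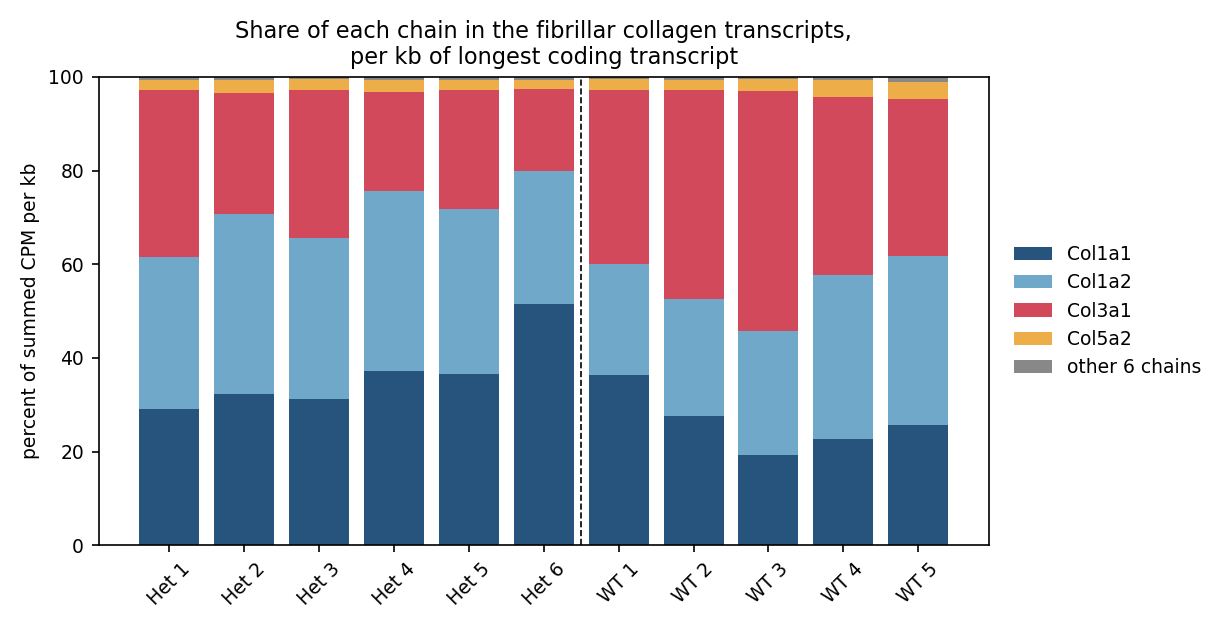
Percent of the summed CPM per kb of all 10 fibrillar collagen genes (y axis, per kb of the longest coding transcript) in each library, Het 1 to 6 left of the dashed line and WT 1 to 5 right of it; colours are Col1a1, Col1a2, Col3a1, Col5a2 and the other 6 chains together. The Col3a1 part is 17.6 to 35.5% in Het and 33.5 to 51.1% in WT.

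Genes for proteins that modify, cut and bind these chains were counted by list, against the 2.65% of all tested genes that rose and the 2.38% that fell. Of 28 tested genes for collagen folding, modification and procollagen processing, 2 rose, 0 fell and 26 did not pass. Their median log2 fold change was -0.018. At an unadjusted p under 0.05 there were 7, 5 of them higher, and no share of all tested genes is given for that cut. DESeq2 called 5 higher and 2 lower, against 4.43% and 4.34% of all tested genes. P4ha3, a subunit of a collagen prolyl hydroxylase, rose by 1.38 ± 0.26 on the log2 scale (adjusted p = 0.0053). It stood at 5.93 ± 1.66 CPM in Het (SD, n = 6) and 2.26 ± 0.71 CPM in WT (SD, n = 5). Adamts2, the protease that removes the amino-terminal propeptide of fibrillar procollagens, rose by 0.37 ± 0.093 (adjusted p = 0.0326), with 443 ± 43.5 CPM in Het and 344 ± 39.5 CPM in WT, and passed in 3 of 11 fits that left out 1 library (highest adjusted p = 0.0912, without WT 3).

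Of 15 tested genes for proteins that bind or line the fibril, 4 rose, 0 fell and 11 did not pass. Their median was 0.19, and 2.65% of all tested genes rose. At an unadjusted p under 0.05, where no share of all tested genes is given, 7 were higher and 4 lower. DESeq2 called 5 higher and 1 lower, against 4.43% and 4.34% of all tested genes. Col12a1, a collagen on the surface of type I fibrils, rose by 0.92 ± 0.16 (adjusted p = 0.0026) and stood at 36.9 ± 5.68 CPM in Het and 19.5 ± 4.63 CPM in WT. Thbs2, a thrombospondin needed for normal fibril shape in mouse, rose by 0.56 ± 0.10 (adjusted p = 0.0052), Col16a1, a minor fibril-associated collagen, by 0.61 ± 0.17 (adjusted p = 0.0475) and Sparc, a collagen-binding matricellular protein, by 0.34 ± 0.082 (adjusted p = 0.0269). Col12a1 and Thbs2 passed in all 11 fits that left out 1 library, Sparc in 5 and Col16a1 in 1 (highest adjusted p = 0.0814 and 0.117, both without WT 3).

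Of 11 tested collagen receptors and collagenases, 0 passed in either direction by edgeR, with a median of 0.068. At an unadjusted p under 0.05, again with no share of all tested genes given, 1 was higher and 1 lower. DESeq2 called 1 higher and 0 lower, against 4.43% and 4.34% of all tested genes, and limma voom called 0. Of 18 tested transcription factors known to act on fibrillar collagen genes, 0 rose and 1 fell, beside 2.38% of all tested genes that fell. Their median was 0.10. At an unadjusted p under 0.05, also with no share given, 2 were higher and 1 lower. DESeq2 called 1 higher and 1 lower, against the same 4.43% and 4.34% of all tested genes. The gene that fell was Sox9, which drives Col2a1 and Col11a1 in cartilage, by 1.16 ± 0.29 on the log2 scale (adjusted p = 0.0270), with 2.94 ± 1.30 CPM in Het and 6.56 ± 1.79 CPM in WT. Sox9 passed in 5 of 11 fits that left out 1 library (adjusted p up to 0.0770, without WT 2). Once the sex score was a covariate, none of these 7 genes passed (adjusted p = 0.0829 to 0.470).

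Markers of the cells that make fibrillar collagen in the aorta were summed in each library, and 5.03% of all tested genes passed (2.65% higher and 2.38% lower in Het) is the background for the counts that follow. The labelled smooth muscle was present, with summed markers at 30400 to 41400 CPM in Het and 33600 to 38100 CPM in WT. Of 6 such markers 1 fell (Cnn1, passing in 3 of 11 fits that left out 1 library). Endothelium was present too, at 287 to 468 CPM in Het and 313 to 437 CPM in WT. Of 10 adventitial fibroblast markers 1 rose and 2 fell, with sums of 2620 to 3500 CPM in Het and 3110 to 4160 CPM in WT. Pi16 fell by 0.62 ± 0.10 on the log2 scale (adjusted p = 0.0019) and Mfap5 by 0.70 ± 0.099 (adjusted p = 6.31e-04), while Cd248 rose by 0.44 ± 0.11 (adjusted p = 0.0316, passing in 3 of 11 fits that left out 1 library, up to 0.0846 without WT 2). With the sex score the adjusted p was 0.0349 for Mfap5, 0.119 for Pi16, 0.467 for Cnn1 and 0.505 for Cd248, and in the Xist-positive libraries that of Mfap5 was 0.0830. In bulk tissue, fewer cells of a type and less RNA per cell cannot be told apart, and the part of these markers in the lower Col3a1, Col5a2 and Col27a1 values was not tested.

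Markers of cartilage and bone, which express Col2a1, Col11a1, Col27a1 and Col24a1, were low. The 16 chondrocyte markers summed to 49.3 to 85.3 CPM in Het and 27.6 to 37.8 CPM in WT, but without Acan, which is also made by vascular smooth muscle, the other 15 summed to 18.3 to 20.4 CPM in Het and 23.3 to 30.7 CPM in WT. The defining cartilage genes Matn1 and Ucma were at 0 counts in every library, Col9a2, Col9a3, Comp, Cnmd and Col10a1 were at 0 in some, and the 9 tested markers had counts in every library. Among those 9, Hapln1 stood at 5.41 ± 1.013 CPM in Het and 6.49 ± 2.39 CPM in WT, Chad at 4.19 ± 1.73 CPM in Het and 6.58 ± 0.93 CPM in WT, and Epyc at 1.27 ± 1.14 CPM in Het and 2.69 ± 1.00 CPM in WT (SD, n = 6 and 5), while Matn3, Col9a1 and Snorc averaged 0.454 to 0.673 CPM in Het and 0.750 to 1.53 CPM in WT. Of 9 tested chondrocyte markers, 2 rose (Acan and Ihh) and 2 fell (Sox9 and Snorc). With 1 library left out, Acan passed in 11 of 11 fits, Ihh in 5, Sox9 in 5 and Snorc in 1. The 7 osteoblast markers summed to 6.77 to 24.5 CPM in Het and 17.9 to 30.6 CPM in WT, and of 3 tested, 2 fell: Alpl by 1.12 ± 0.22 on the log2 scale (adjusted p = 0.0066) and Phex by 1.03 ± 0.28 (adjusted p = 0.0474, passing in 1 of 11 fits that left out 1 library). Skeletal muscle markers summed to 7.10 to 14.6 CPM in Het and 18.7 to 41.2 CPM in WT. Tnnt3 and Tnni2 fell among them. With the sex score Acan still passed (adjusted p = 6.04e-04), and Tnnt3, Sox9, Tnni2, Alpl, Snorc, Phex and Ihh did not (adjusted p = 0.0724 to 0.502). The part of any of these in the fibrillar collagen values was not tested.

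The remaining marker sums overlapped between the groups for fat (270 to 1870 CPM in Het, 691 to 2480 CPM in WT), lymphoid cells (0.721 to 11.8 CPM in Het, 0.308 to 3.44 CPM in WT), macrophages (19.8 to 55.6 CPM in Het, 16.1 to 48.3 CPM in WT), Schwann cells (11.9 to 20.8 CPM in Het, 15.6 to 21.5 CPM in WT), cardiac muscle (12.5 to 22.7 CPM in Het, 21.1 to 25.5 CPM in WT) and tendon (4.54 to 8.16 CPM in Het, 4.78 to 6.28 CPM in WT).

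The genes whose log2 CPM followed each chain most closely over the 11 libraries were named by the highest Pearson r among all 14757 tested genes, with predicted genes passed over. For Col5a2 they were Slc27a3, Trib3 and Rccd1 (r = 0.96, 0.95 and 0.94), and for Col27a1 they were Ints3, Colec12 and Cstf2t (r = 0.93 for each of these). For Col3a1 they were Txnl1, Cdc37 and Cuedc2 (r = 0.98, 0.97 and 0.97), for Col1a1 Hnrnpa0, Zbtb45 and Synpo2l (r = 0.93, 0.93 and 0.92), and for Col1a2 Fads3, Hs6st2 and Dio2 (r = 0.94, 0.93 and 0.91). For Col5a1 they were Lzts1, Rbm26 and Ankrd11 (r = 0.92, 0.90 and 0.89), for Col24a1 Foxp2, Clmp and Zbtb20 (r = 0.93, 0.92 and 0.91), for Col5a3 Cdc42ep5, Ednra and Ndufa4l2 (r = 0.91, 0.88 and 0.86) and for Col11a1 Rpl24, Cdk17 and the pseudogene Rps15a-ps5 (r = 0.90, 0.89 and 0.88). None of the 3 nearest genes of any chain was another fibrillar collagen. With 11 points and this many genes such values are descriptions, and the points share libraries and group differences.

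**Figure D5:**
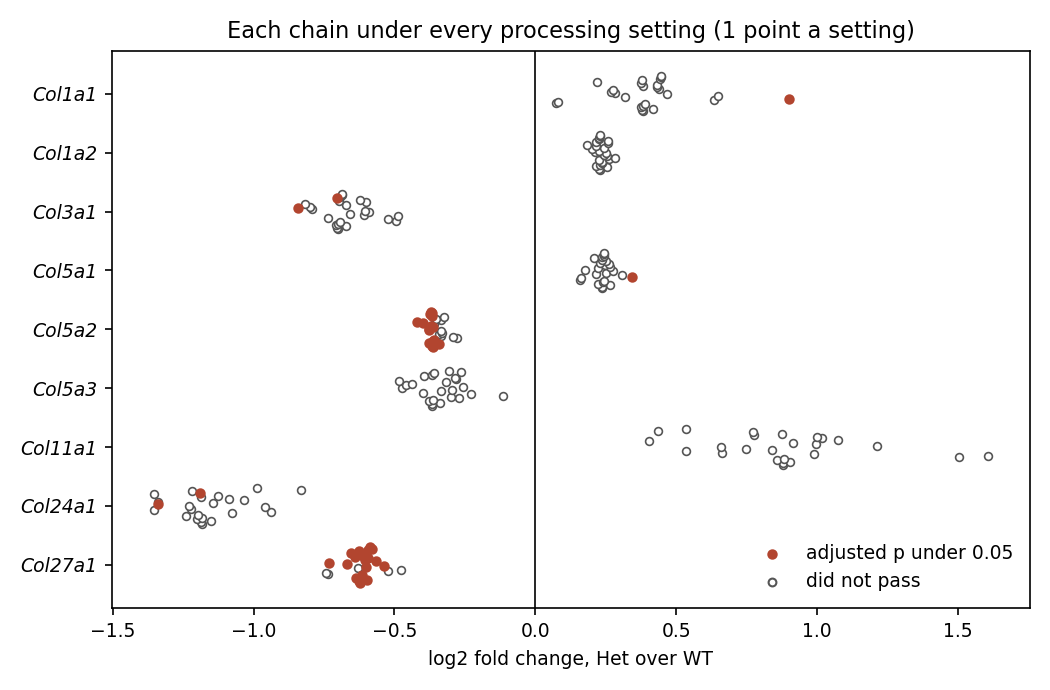
Log2 fold change of Het over WT (x axis) of each tested chain under every processing setting, 1 point per setting (up to 26 per gene); red points passed an adjusted p of 0.05. Every point lies on the same side of 0 as the other points of its gene, while Col5a2 passed in 16 settings and Col27a1 in 21.

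Across settings each chain kept its direction. Col1a1, Col1a2, Col5a1 and Col11a1 were positive and Col3a1, Col5a2, Col5a3, Col24a1 and Col27a1 negative in every setting in which they were tested, over 25 or 26 settings each. The number of chains that fell was 0 with the sex score (0.413% of all tested genes fell), in the Xist-positive libraries (0.0962%), with the replicate block (1.05%), without WT 1 and 2 (1.28%) and under the column-name covariate (1.42%). Under that covariate Col5a1 rose, as did 1.4% of all tested genes, and without WT 1 and 2 Col1a1 crossed the threshold, as did 1.57% in that direction, which is no test of Col1a1 because the libraries left out were picked for it. Since these settings share libraries, this is a statement about processing and not about other animals.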

How the data were processed

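Bulk RNA-seq of 11 aortic arch libraries (6 Het, 5 WT) was analysed from tables the authors deposited. Per the labels' protocols, unstranded Nextera XT libraries were read as 75 nt single reads in 2 runs, which the columns do not separate. STAR 2.5.2a, limma, edgeR, DESeq2 and GRCm38 appear in the submitters' processing notes with no role. The counter is not given in the sources used here, nor is the annotation. The deposited counts are whole numbers per gene; 24 rows of no mouse gene were left out. A second deposited signal, named TMM-scaled CPM by the authors, served to find the members by symbol and for an alternative test. Symbols of 48349 of 48709 genes, positions and lengths are from GENCODE M21 (GRCm38).

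Low genes were removed with filterByExpr of edgeR (at least 10 counts, total of 15) and libraries were scaled by TMM (CPM in the text use these factors, 0.979 to 1.031). The quasi-likelihood test of edgeR 4.0.16 (robust; R 4.3.3) set Het against WT with no covariate and 11 libraries, and p was adjusted over all tested genes by Benjamini-Hochberg. The SE is the size of the log2 fold change divided by the square root of F. Ratios used counts plus 0.5 and an exact two-sided permutation test over libraries. Alternatives were other scalings and filters, DESeq2 1.42.0, limma 3.58.1, covariates and left-out libraries; the longest coding transcript as length was chosen after seeing the data. The sex score subtracts log2 CPM of Xist from the mean over 4 Y-linked genes (Uty, Kdm5d, Eif2s3y, Ddx3y), and Xist-positive means at least 100 Xist counts. Named genes were the 10 members, list members past the threshold (markers were summarised, with some passing members named) and the 3 tested genes with the highest r per chain. The members, lists, ratios and alternatives were chosen with earlier results of these data known. No 2 libraries of a group agreed within counting noise (lowest mean chi-square per gene 10.6). P-values measure the spread between animals as far as each library is 1 animal. The test was checked on simulated counts.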

Additional observations from a re-analysis of the deposited data

Results flagged for a closer look

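Each chain and each ratio was screened in each group for a library whose gap to its nearest neighbour took up an unusually large part of the group's range, by Dixon's criterion, which chance meets in about 1 in 20 groups. Of 34 such groups, 3 were picked out. Het 6 was the highest Het library for Col1a1, at 11178 CPM, with a gap to the next library of 0.693 of the Het range. Het 6 was also the highest Het library for the log2 ratio of Col1a1 to Col1a2, at 1.008, while the other Het libraries lay at or below 0.21. Without Het 6 the log2 fold change of Col1a1 was 0.22 (adjusted p = 0.706), against 0.38 with it. WT 4 was the highest WT library for Col2a1, at 0.294 CPM, which is 4 counts.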

How the results depend on the processing

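Every log2 fold change of the 9 tested chains kept its sign under all alternatives. Of 9 chains, 1 rose with the column-name number (Col5a1) and 1 when WT 1 and WT 2 were left out (Col1a1, for whose high values those libraries were picked, so no test), against 0 in the reported fit. The number that fell, 2 as reported, was 4 with DESeq2. It was 0 with the sex score, in the Xist-positive libraries, with the replicate block, without both WT 1 and WT 2, and with the column-name number. When single libraries were left out it was 1 to 3, and 1.53 to 2.77% of all tested genes fell in those fits. The replicate numbers were not treated as pairs: same-numbered libraries had correlations of their deviations of -0.21 to 0.06, none over 0.1, and 0 of 5 matched its own number best. The cause of these shifts was not tested, except that the Xist-positive fit (2 Het, 5 WT) and the block fit (10 libraries) hold fewer libraries.

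For ratios, the difference in the Xist-positive libraries was -0.042 for Col1a1 to Col1a2, which reversed it, and 1.42 for Col11a1 to Col5a1. Without WT 1 and WT 2 it was 0.58 for Col1a1 to Col1a2, -0.54 for Col5a1 to Col1a1, -1.21 for Col5a2 to Col1a1 (values with no test, for the same reason) and -0.75 for Col3a1 to Col1a2 (no longer past it). With single libraries left out the differences were -1.29 to -0.92 for Col3a1 to Col1a1, -1.06 to -0.80 for Col3a1 to Col1a2, 0.55 to 0.67 for Col5a1 to Col5a2, -1.0 to -0.64 for Col5a2 to Col1a1, 0.059 to 0.41 for Col1a1 to Col1a2, -0.40 to -0.067 for Col5a1 to Col1a1 and 0.11 to 0.76 for Col11a1 to Col5a1.

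The counts that follow moved with the shares over all tested genes. With the sex score 0.42% rose and 0.413% fell, and without WT 1 and WT 2 1.57% rose and 1.28% fell. With single libraries left out 1.53 to 2.96% rose and 1.53 to 2.77% fell. The number of folding and processing genes that rose was 0 with the sex score, 1 without WT 1 and WT 2, and 1 to 3 when single libraries were left out. Fibril partners that rose numbered 0 with the sex score and 2 to 3 when single libraries were left out, and 0 to 2 fell then. Receptors and collagenases that rose numbered 0 to 1. Transcription factors that fell numbered 0 with the sex score, 0 without WT 1 and WT 2, and 0 to 1 when single libraries were left out, and 0 to 1 rose then. Depth limits Col2a1, Col11a1, Col24a1 and Col5a3, at 0 to 86 counts per library.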
